A study of Homo sapiens with 27 samples.

Results

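Glycolytic enzymes, glucose and lactate transporters, and targets of the hypoxia factors were followed through the differentiation of the human embryonic stem cell line H1 toward photoreceptor progenitors. The group comprised 34 genes chosen by name, and all 34 were found among the 44852 genes of the deposited tables. It held 2 glucose transporters, 9 enzymes of upper glycolysis, 2 enzymes that set the level of fructose 2,6-bisphosphate, 6 enzymes of lower glycolysis, 2 lactate dehydrogenases, 3 genes of lactate transport, 2 pyruvate dehydrogenase kinases, and 8 other hypoxia targets. Cells were grown on LN523, LN323, or LN521 matrices, and RNA was taken in 3 replicates of each matrix at days 2, 22, and 32, which gave 27 bulk RNA-seq libraries. The laminin chains in each coating are given differently by the sample labels, which combine LN523 and LN521 each with LN323 and use LN323 alone, and by the paper, which combines LN523 and LN323 each with LN521 and uses LN521 alone. The matrices are therefore named here by their leading isoform. Day 2 cells were undifferentiated and in pluripotency medium, before CKI-7 and SB431542 were added to all 3 matrices to start neural induction. The day 22 and day 32 cells had all passed through that step and then a photoreceptor medium with BDNF, CNTF, retinoic acid, and DAPT, so that day and medium cannot be told apart. All libraries came from 1 cell line, and no source says that the 3 replicates of a group were separate differentiations. The p-values then measure the spread between these samples, which may be technical. That spread was shared in part over genes, so an SE need not follow the scatter of that gene's own replicates.

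Glycolysis splits glucose to pyruvate, and pyruvate is either reduced to lactate, which leaves the cell through monocarboxylate transporters, or enters the mitochondria through pyruvate dehydrogenase, which the PDK kinases switch off. When oxygen is low, the HIF transcription factors are no longer marked for destruction by prolyl hydroxylases and raise many of these genes. Pluripotent stem cells are known for high glycolysis, and the mature retina for making lactate even in the presence of oxygen. Photoreceptors take up glucose through SLC2A1, which works together with basigin (BSG) in the response to the rod-derived cone viability factor.

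Libraries held 25620624 to 47340990 counts (median 39862487). In the marker check, all 6 pluripotent genes were lower at day 22 than at day 2 (median log2 fold change -8.70), and all 6 neural retina progenitor genes were higher (median 8.47). The keratinocyte, mesenchyme, and pigment epithelium lists rose as well, with 5, 5, and 6 of 6 genes past the test, so the later cultures were mixed, and the part of other cells in any change below was not tested. Of 6 neuron and 6 photoreceptor progenitor genes, 3 and 4 rose and 1 photoreceptor gene fell. Of 6 cell cycle genes 5 fell, the exception being TYMS at 0.23, and their median log2 fold change was -0.86, with a summed level of 1087 to 1304 TPM at day 2 and 394 to 897 TPM at day 22. The red blood cell list, which should be absent, summed to at most 5.59 TPM in any library. In bulk samples, fewer cells of a type and less RNA per cell cannot be told apart.

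The bases just upstream of the start sites are shown for 4 hypoxia-responsive members that were lower on both other matrices than on LN521 at day 22, and for PGAM1, the enzyme with the largest fall from day 2 among the glycolytic enzymes. HIF factors bind a short core, searched here as ACGTG or GCGTG on either strand and set in capitals, overlapping matches being joined. The 250 bases before each RefSeq start on GRCh38 are written in the direction of the gene. PFKFB4, a kinase that makes fructose 2,6-bisphosphate, is at chr3:48556804-48557053 (minus strand), ALDOC, the brain aldolase, at chr17:28576896-28577145 (minus), ENO2, the neuronal enolase, at chr12:6914330-6914579 (plus), BNIP3, a mitophagy receptor, at chr10:131981924-131982173 (minus), and PGAM1, phosphoglycerate mutase, at chr10:97427568-97427817 (plus). The ALDOC and BNIP3 windows reach past the most upstream start that GENCODE gives the gene, and the PFKFB4, ENO2, and PGAM1 windows lie inside the span of the gene, whose most upstream start is farther out.
PFKFB4: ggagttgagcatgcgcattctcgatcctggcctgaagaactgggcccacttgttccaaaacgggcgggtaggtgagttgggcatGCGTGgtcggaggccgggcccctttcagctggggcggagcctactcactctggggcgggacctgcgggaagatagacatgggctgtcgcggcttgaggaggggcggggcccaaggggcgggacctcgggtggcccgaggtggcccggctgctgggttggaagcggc
ALDOC: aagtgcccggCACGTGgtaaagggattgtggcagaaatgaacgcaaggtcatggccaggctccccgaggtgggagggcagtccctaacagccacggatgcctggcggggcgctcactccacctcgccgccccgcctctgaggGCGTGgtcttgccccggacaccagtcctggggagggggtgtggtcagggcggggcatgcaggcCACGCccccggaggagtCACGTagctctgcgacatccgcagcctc
ENO2: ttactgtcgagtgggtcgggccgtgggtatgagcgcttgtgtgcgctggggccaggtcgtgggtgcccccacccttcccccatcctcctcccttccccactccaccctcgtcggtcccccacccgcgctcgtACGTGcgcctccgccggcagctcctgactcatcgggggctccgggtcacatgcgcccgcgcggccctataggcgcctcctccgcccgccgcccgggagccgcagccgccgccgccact
BNIP3: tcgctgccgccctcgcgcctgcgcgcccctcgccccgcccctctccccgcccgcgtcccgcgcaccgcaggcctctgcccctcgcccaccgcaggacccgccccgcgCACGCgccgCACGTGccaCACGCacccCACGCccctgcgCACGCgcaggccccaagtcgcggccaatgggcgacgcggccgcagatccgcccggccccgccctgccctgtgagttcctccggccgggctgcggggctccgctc
PGAM1: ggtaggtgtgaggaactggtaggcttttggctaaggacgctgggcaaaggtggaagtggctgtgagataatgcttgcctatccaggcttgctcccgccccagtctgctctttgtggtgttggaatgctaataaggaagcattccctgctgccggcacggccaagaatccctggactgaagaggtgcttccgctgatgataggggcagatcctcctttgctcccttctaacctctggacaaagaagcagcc
ALDOC held 5 matches in 4 runs, and BNIP3 held 6 matches in 5 runs. Both have the palindrome CACGTG, which counts once on each strand. PFKFB4 and ENO2 held 1 match each, and the PGAM1 window held none. A match was present for 25 of the 30 members that have a RefSeq window (83.3%), and in 47.4% of all 27305 genes of the table. Counted by window, it was 33 of 57 member windows (57.9%) beside 43.2% of 35116 windows. SLC2A3, SLC16A1, VEGFA, and NDRG1 had no window. The group was picked in part for hypoxia targets, and a gene with more windows has more room for a match. The higher share among members is therefore a description and was not tested. These are letter matches, and binding was not measured.

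Levels are given as deposited TPM, which are counts divided by gene length and scaled to the same total in each library. Together the 34 genes made up 2.07% of all TPM in the median day 2 library (range 1.68% to 2.51%), 1.34% at day 22 (1.13% to 2.17%), and 1.46% at day 32 (1.08% to 1.94%). GAPDH and ENO1 were the most abundant members at every day, with means of 4490 and 3794 TPM at day 2. CA9, a carbonic anhydrase, was the least abundant member, with a mean of 1.59 TPM at day 2. CA9 and ANKRD37 share 35.7% and 40.4% of their exonic bases with a gene on the other strand, and since the strand setting of the counting is not given in the sources used here, part of their reads may belong to the partner.

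**Figure D1:**
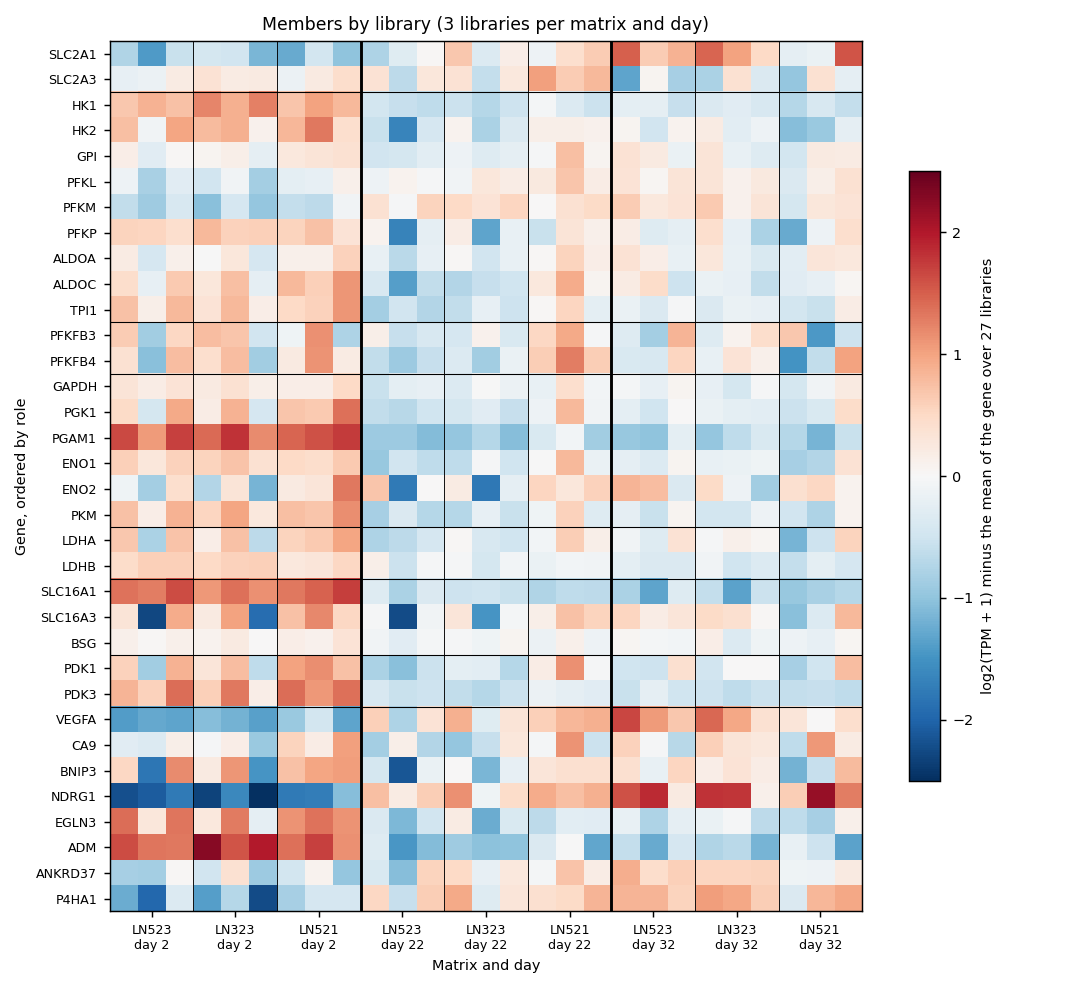
Level of the 34 genes in each of the 27 libraries, as log2(TPM + 1) minus the mean of that gene over all libraries (color scale clipped at 2.5 in either direction), with genes in rows by role and libraries in columns by day and matrix. Most glycolytic genes are red at day 2 and blue at day 22, VEGFA, NDRG1, and P4HA1 run the other way, and single libraries of a group (LN523 replicate 2 and LN323 replicate 3 at day 2) stand below their partners.

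The first question was how the genes changed between pluripotent cells and day 22 cultures. Averaged over the matrices, 28 of 34 genes passed edgeR's quasi-likelihood test at a Benjamini-Hochberg adjusted p under 0.05. Of these, 23 fell and 5 rose. Over all 44852 genes tested 35.1% passed (16.9% lower and 18.2% higher), and 57.9% passed among the 25682 that clear a filter on low counts. The median log2 fold change of the 34 genes was -0.80, beside -0.0047 for all genes tested and -0.86 for the 6 cell cycle genes, whose part in the change was not tested. TPM puts this step 0.23 higher on the log2 scale than the TMM scaling of the test, and total-count scaling puts it 0.13 higher. Falls of 0.40 to 0.44 log2 (ALDOA, BSG, and GPI) exceed these shifts, but their size depends on the scaling. Over the settings, their log2 fold changes reached -0.17, -0.20, and -0.22 at the highest. With limma on log2(TPM + 1), 22 genes passed, 16 lower and 6 higher. The TPM ranges of the 9 libraries of each day did not overlap for 7 members that were lower at day 22 and 2 that were higher, beside 13.0% and 24.1% of the 12981 genes with at least 1 TPM in every library.

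Neither glucose transporter of the group was called lower in mRNA, and glucose uptake was not measured. SLC2A1, the GLUT1 transporter, ran from 345 to 679 TPM at day 2 (median 545) and from 540 to 1467 TPM at day 22 (median 941). It rose by 0.65 ± 0.17 on the log2 scale (SE, adjusted p = 0.00198), although the ranges of the 2 days overlapped. SLC2A3, the high-affinity GLUT3 transporter of neurons, stood at a median of 415 TPM at day 2 and 461 TPM at day 22, and its change of -0.03 ± 0.16 did not pass.

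Among the kinases that trap and commit glucose, the hexokinases fell. HK1 ran from 214 to 321 TPM at day 2 (median 244) and from 81.2 to 129.5 TPM at day 22 (median 91.4), without overlap. Its log2 fold change was -1.63 ± 0.11 (adjusted p = 1.99e-18). HK2, the hexokinase induced by HIF, fell by 1.30 ± 0.15 (adjusted p = 3.83e-10), from a median of 101 TPM to 45.6 TPM. The 3 phosphofructokinases, which catalyze the committed step, moved apart. PFKP, the platelet form, ran from 132 to 182 TPM at day 2 and from 32.1 to 131 TPM at day 22, and fell by 1.07 ± 0.19 (adjusted p = 3.46e-06). PFKM, the muscle form, ran from 67.4 to 132 TPM at day 2 and from 137 to 206 TPM at day 22, and rose by 0.75 ± 0.12 (adjusted p = 1.09e-06). Neither gene's days overlapped in TPM. PFKL, the liver form, had a log2 fold change of 0.25 ± 0.12 that did not pass (adjusted p = 0.118).

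The other enzymes of upper glycolysis were lower at day 22. TPI1, triosephosphate isomerase, fell by 1.15 ± 0.12 on the log2 scale (adjusted p = 1.33e-11), and ALDOC by 1.03 ± 0.16 (adjusted p = 1.76e-07). ALDOA, the main aldolase, and GPI, glucose-6-phosphate isomerase, fell by 0.40 ± 0.12 and 0.44 ± 0.12. Both lost their call with limma on log2(TPM + 1) and without LN521 day 22 replicate 1 or 3, and ALDOA also without LN323 day 22 replicate 2 or 3, LN521 day 2 replicate 3, or LN523 day 22 replicate 2. PFKFB4 fell by 0.67 ± 0.21 (adjusted p = 0.00952), a call lost with limma (adjusted p = 0.456) and without LN323 day 22 replicate 2, LN521 day 2 replicate 2, LN521 day 22 replicate 3, or LN523 day 22 replicate 3. Its relative PFKFB3 had a change of -0.51 ± 0.22 that did not pass (adjusted p = 0.0701).

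In lower glycolysis, 5 of 6 enzymes fell. PGAM1 had between 784 and 1317 TPM at day 2 (median 1127) and between 177 and 356 TPM at day 22 (median 200.1). It fell by 2.52 ± 0.13 (adjusted p = 9.81e-23), with a wide gap between the days. ENO1, the ubiquitous enolase, ran from 3207 to 4310 TPM at day 2 and from 1366 to 4608 TPM at day 22, and fell by 1.02 ± 0.13 (adjusted p = 1.08e-09). The overlap came from 1 library, LN521 replicate 2, at 4608 TPM, with the other 8 day 22 libraries at 2603 TPM or lower. PKM (pyruvate kinase) fell by 1.27 ± 0.13, PGK1 (phosphoglycerate kinase) by 1.03 ± 0.15, and GAPDH, often used as a reference gene, by 0.64 ± 0.10 (adjusted p = 4.64e-07). ENO2 was the exception at -0.37 ± 0.22 (adjusted p = 0.231). Processed pseudogenes share sequence with several of these genes, and their rows held at most 1.16% of the count of PGAM1 and 0.886% of that of GAPDH in any library.

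The 2 lactate dehydrogenases and 3 genes of lactate transport were lower in mRNA at day 22, with 1 of these calls, SLC16A3, lost under many settings. LDHA, which favors lactate formation, and LDHB, which favors the reverse, fell by 0.85 ± 0.17 and 0.85 ± 0.10 (adjusted p = 2.43e-05 and 6.86e-10), the LDHA call being lost with limma (adjusted p = 0.0726). SLC16A1, the MCT1 transporter, ran from 569.7 to 901 TPM at day 2 (median 698) and from 157 to 217 TPM at day 22 (median 182). Its fall of 2.18 ± 0.12 (adjusted p = 1.80e-22) was of like size on each matrix, at -2.23, -2.08, and -2.22 on LN523, LN323, and LN521. SLC16A3, the MCT4 exporter induced by HIF, ran from 4.28 to 57.7 TPM at day 2 and from 4.40 to 41.4 TPM at day 22. Its fall of 0.75 ± 0.29 (adjusted p = 0.035) lost its call with DESeq2 (adjusted p = 0.12), with both low-count filters, without the lane block, and with limma. It was also lost without LN523 day 2 replicate 1 or 3, LN523 day 22 replicate 2 or 3, LN323 day 2 replicate 2, LN323 day 22 replicate 2 or 3, LN521 day 2 replicate 2, or LN521 day 22 replicate 1 or 3. BSG, the chaperone of both transporters, fell by 0.43 ± 0.10 (adjusted p = 0.000297). Of the kinases that close the entry to the mitochondria, the 2 in the group fell too, PDK3 by 1.71 ± 0.15 and PDK1 by 1.01 ± 0.20 (adjusted p = 2.93e-14 and 3.06e-05), PDK1 missing the threshold with limma (adjusted p = 0.0531). Their relatives PDK2 and PDK4, read from a list below, rose.

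The hypoxia targets outside metabolism split. ADM, the vasodilator adrenomedullin, ran from 48.3 to 107 TPM at day 2 (median 65.8) and from 7.17 to 21.3 TPM at day 22 (median 10.2), and fell by 2.72 ± 0.18 (adjusted p = 2.87e-18). EGLN3, a prolyl hydroxylase that is itself a HIF target, fell by 1.71 ± 0.18, and BNIP3 by 1.04 ± 0.24 (adjusted p = 2.51e-11 and 0.000364), a BNIP3 call that limma did not give (adjusted p = 0.246). Against these, NDRG1, a stress-induced gene, had between 1.01 and 4.72 TPM at day 2 (median 2.48) and between 10.1 and 25.1 TPM at day 22 (median 19.1). It rose by 2.77 ± 0.23 (adjusted p = 4.72e-15) with no overlap. VEGFA, the angiogenic growth factor, rose by 1.41 ± 0.16, from a median of 9.45 TPM to 37.0 TPM, and P4HA1, a collagen prolyl hydroxylase, by 1.17 ± 0.18, from 121 TPM to 298 TPM (adjusted p = 5.19e-11 and 3.59e-07). ANKRD37 and CA9 did not pass, at 0.41 ± 0.28 and -0.73 ± 0.48.

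**Figure D2:**
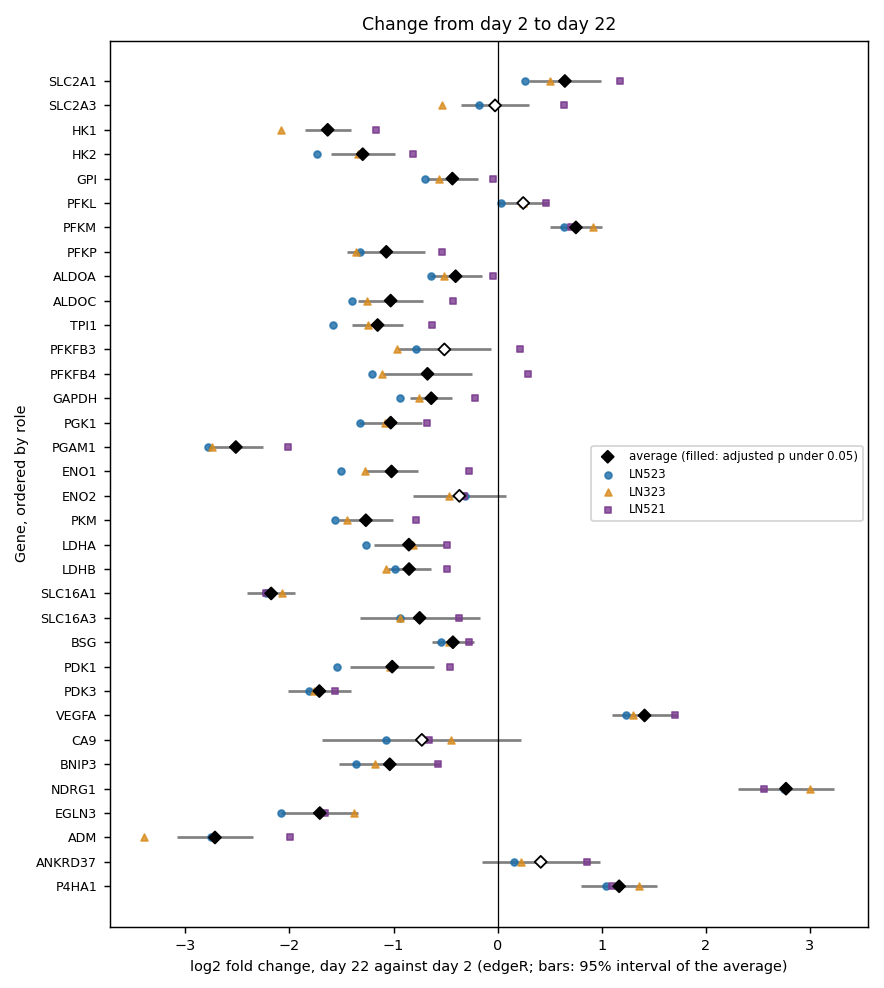
Log2 fold change of each of the 34 genes between day 2 and day 22, with genes in rows by role. Diamonds are the average over the matrices with a 95% interval (filled where the adjusted p is under 0.05) and small symbols are the single matrices. The averages run from -2.72 (ADM) to 2.77 (NDRG1), and the LN521 symbols lie to the right of the others for most glycolytic enzymes.

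Each matrix was also tested alone. On LN523, 26 genes passed, 22 lower and 4 higher, beside 21.7% of all genes tested (10.2% lower and 11.5% higher). On LN323, 25 passed, 21 lower and 4 higher, beside 22.7% (10.9% lower and 11.8% higher). On LN521, 15 passed, 10 lower and 5 higher, beside 18.9% (8.09% lower and 10.8% higher). The largest falls were PGAM1 (-2.78 ± 0.23) and ADM (-2.76 ± 0.32) on LN523, ADM (-3.40 ± 0.33) and PGAM1 (-2.75 ± 0.23) on LN323, and SLC16A1 (-2.22 ± 0.20) and PGAM1 (-2.02 ± 0.22) on LN521, all with adjusted p of 7.97e-10 or lower. NDRG1 had the largest rise on each, by 2.75, 3.00, and 2.56. The median of the 34 log2 fold changes was -1.14 on LN523, -0.999 on LN323, and -0.40 on LN521. The difference itself was tested by an interaction term, and 0 genes passed for LN523 against LN521 or LN323 against LN521 (edgeR, and 0 with DESeq2), with 13 and 12 members at an unadjusted p under 0.05, beside 4.65% and 5.31% of all genes at that threshold. Over all genes 0.00446% and 0.0201% passed. With only the 12 libraries of the matrices and days compared in the fit, 7 and 5 members passed. ENO1 had the lowest p in the first contrast, with a difference of -1.24 (adjusted p = 0.238).

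Where several isozymes do the same step, their mix was described as a share of summed TPM, without a test. PFKP held 46.1% ± 6.8 (SD, n = 9 libraries) of the phosphofructokinase TPM at day 2 and 21.5% ± 6.5 at day 22, while PFKM went from 26.8% ± 4.0 to 45.5% ± 4.5. At day 32 these shares were 23.3% ± 4.3 and 43.5% ± 2.7. PFKP was thus the most abundant form at day 2 on average in TPM (in counts PFKL was, at 36.5%), and PFKM at the later days. SLC2A3 made up 43.4% ± 5.8 of the summed SLC2A1 and SLC2A3 at day 2, 32.0% ± 8.7 at day 22, and 16.4% ± 9.4 at day 32. SLC16A3 went from 4.37% ± 2.29 of the 2 monocarboxylate transporters to 11.5% ± 5.6 and 15.8% ± 5.4. SLC16A1 therefore remained the main form in each of the 27 libraries, the highest SLC16A3 share being 23.4%. ENO2 and ALDOC stayed minor forms, at means of 2.87%, 4.98%, and 5.62% for ENO2 and 11.4%, 7.82%, and 7.90% for ALDOC at days 2, 22, and 32. LDHB made up most of the lactate dehydrogenase TPM at every day (74.9% ± 7.8, 74.6% ± 5.8, and 70.2% ± 7.1), and HK2 held 27.6% ± 6.9, 32.7% ± 7.4, and 32.4% ± 6.4 of the hexokinase TPM. PDK3 held 76.8% ± 5.3, 66.9% ± 9.4, and 64.2% ± 9.7 of the summed PDK1 and PDK3 TPM, and in counts, which are not divided by gene length, it was the smaller of the pair at each day (38.3%, 27.9%, and 25.6%).

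**Figure D3:**
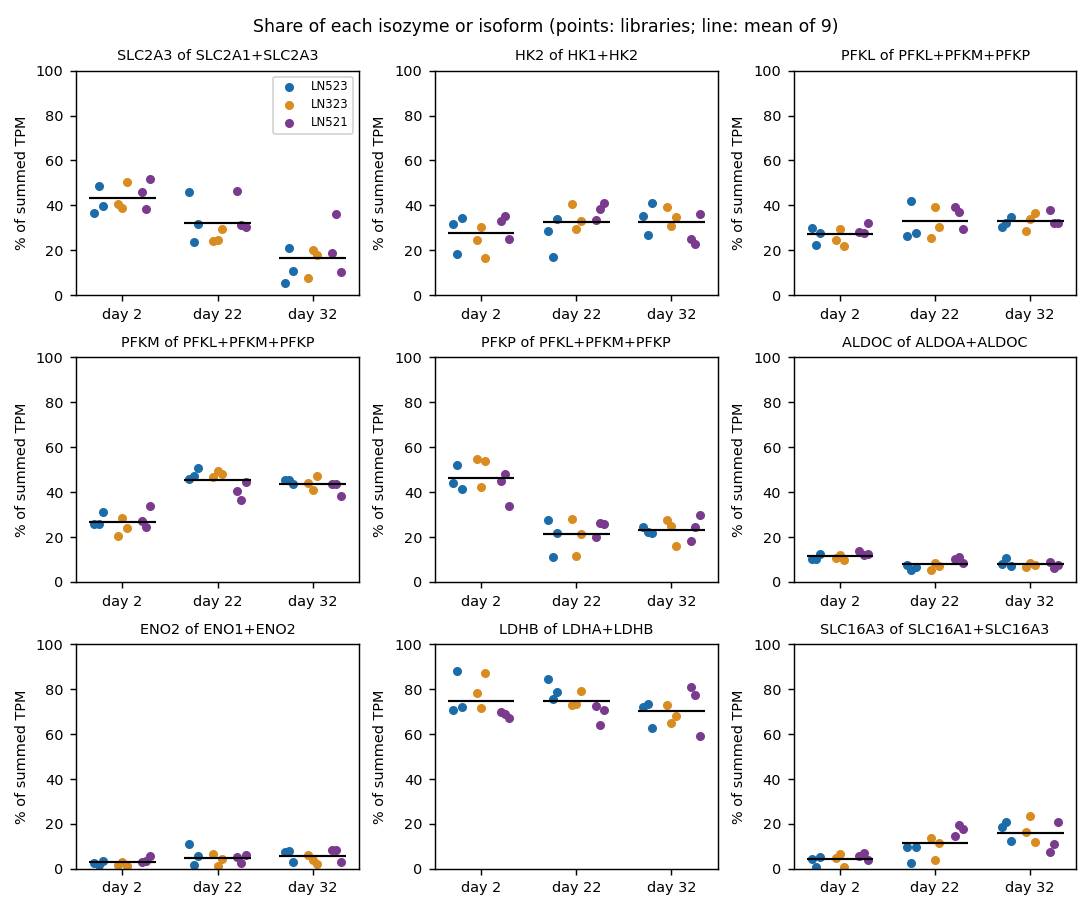
Share of each isozyme or isoform in the summed TPM of its set, in percent, for each library by day, colored by matrix, with a line at the mean of the 9 libraries of a day. PFKP and PFKM trade places between days 2 and 22, and the SLC2A3 share declines over the 3 days, while the LDHB share is at least 59.0% in every library.

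Neighboring genes of the pathway were read from lists. Of 29 other isozymes and shunt genes, 18 passed between days 2 and 22, 11 lower and 7 higher, a share near the 57.9% that passed among genes clearing the low-count filter. PKLR, the liver pyruvate kinase, and LDHD, a D-lactate dehydrogenase, had the largest falls (-6.93 and -3.66), and ENO3, the muscle enolase, and SLC2A12, another glucose transporter, the largest rises (2.28 and 1.25). Of 19 genes of pyruvate entry and oxidation, 9 fell and 2 rose, again a share near that 57.9%. The falls were led by DLAT and PDHB, subunits of pyruvate dehydrogenase (-1.01 and -0.92), and the rises were the kinases PDK4 and PDK2 (4.72 and 1.07). PDK4 and PDK2 thus moved opposite to PDK1 and PDK3. Among 10 hypoxia factors and regulators, 4 rose, led by EPAS1 (HIF-2 alpha, 2.88) and ARNT2 (1.90), and HIF3A fell (-0.47). Of 30 other hypoxia targets, 9 rose, led by CXCR4 (4.65) and PLOD1 (1.45), and 9 fell, led by RIMKLA (-3.40) and HK2P1 (-2.98), a pseudogene of HK2, in all a share near the same 57.9%. The medians of these lists were -0.47, -0.26, 0.25, and 0.12.

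From day 22 to day 32 little passed the test. Averaged over matrices, 2 of 34 genes passed, beside 1.33% of all genes. The 9 day 32 libraries had between 791 and 2741 TPM of SLC2A1 (median 1688), and the gene rose by 0.85 ± 0.17 (adjusted p = 0.00208). SLC2A3 ran from 143 to 469 TPM (median 281) and fell by 0.66 ± 0.17 (adjusted p = 0.0207). The 2 glucose transporters thus went in opposite directions, and for both genes the days overlapped. Both calls were lost under filterByExpr, under a minimum of 10 counts in every library, with limma, and without LN521 day 32 replicate 3, and SLC2A3 also lost its call with DESeq2, without the lane block, with only the days compared in the fit, and without any of 8 single libraries, that one among them. BSG changed by 0.02 ± 0.10 (95% interval -0.18 to 0.21).

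On LN523 alone, 2 genes passed between these days, beside 0.381% of all genes. SLC2A1 had 540, 744, and 941 TPM in the day 22 libraries and 2603, 1431, and 1688 TPM in the day 32 libraries, and rose by 1.44 ± 0.31 (adjusted p = 0.00876). VEGFA had 37.0, 13.8, and 31.1 TPM and then 78.9, 52.0, and 39.3 TPM, and rose by 1.12 ± 0.27 (adjusted p = 0.0331). Every day 32 library was above every day 22 library for both genes on this matrix. DESeq2 called 0 of the 2, and leaving out LN523 day 22 replicate 1 or day 32 replicate 1 also left 0. On LN323 and LN521, 0 genes passed (edgeR, and 0 with DESeq2), beside 0.0424% and 0.268% of all genes. At an unadjusted p under 0.05 there were 3 and 7 members, beside 2.85% and 6.16% of all genes. The SLC2A1 change was 0.82 on LN323 (adjusted p = 1), so its difference from LN523 was not shown. The median over the 34 genes was 0.55 on LN523, 0.21 on LN323, and -0.34 on LN521. In the test of this difference 0 members passed in any of the 3 contrasts, as did 0 genes of the whole table, with 21 members at an unadjusted p under 0.05 for LN523 against LN521, 7 for LN323 against LN521, and 0 for LN523 against LN323, beside 4.78%, 3.43%, and 2.01% of all genes at that threshold.

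Of the lists, 2 of 30 other hypoxia targets rose from day 22 to day 32, the collagen-modifying LOX (1.02) and PLOD2 (0.64). ENO3 (-1.05) and EMB, a partner of monocarboxylate transporters (-0.91), fell, HIF3A rose (1.25), and 0 of 19 pyruvate genes passed (edgeR, 1 at an unadjusted p under 0.05). Over the same step 5 of 6 neuron markers, 4 of 6 photoreceptor progenitor markers, and 3 of 6 each of the keratinocyte and mesenchyme markers rose, and their part in the SLC2A1 and SLC2A3 changes was not tested.

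**Figure D4:**
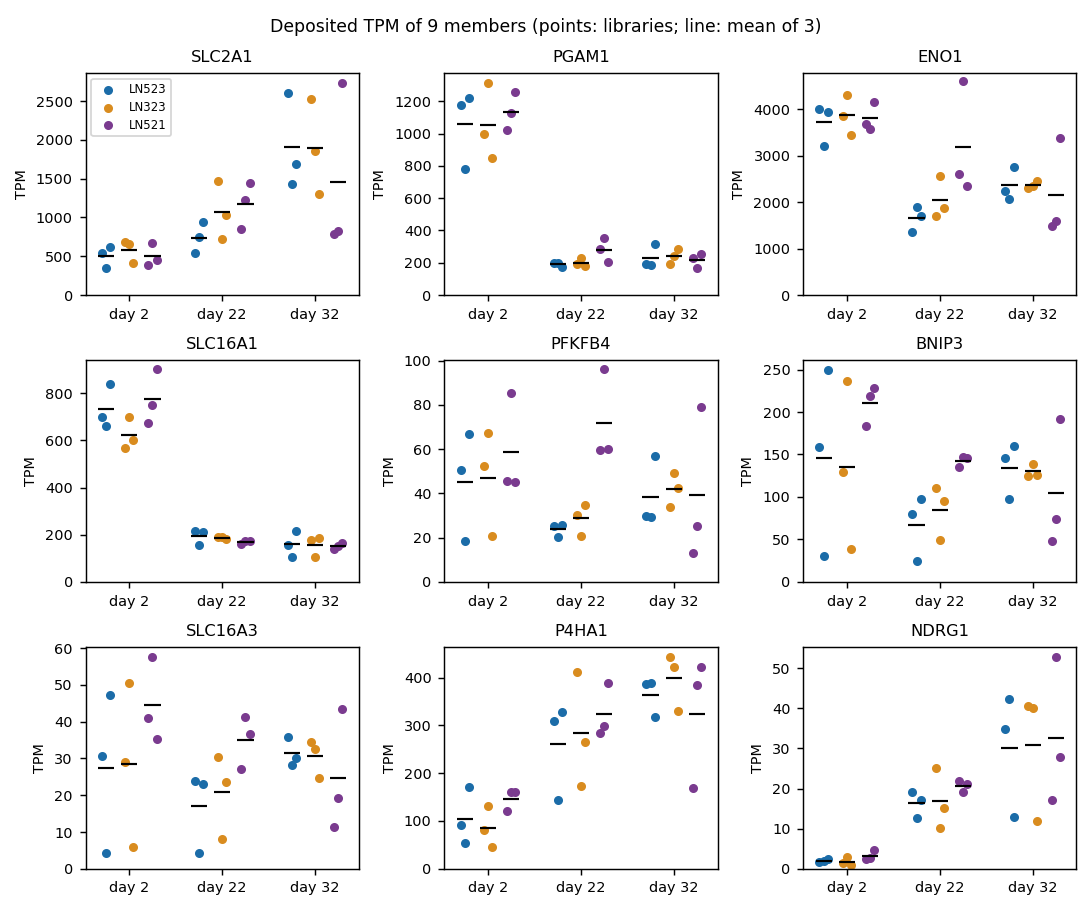
Deposited TPM of 9 genes in each library by day and matrix, with a line at the mean of the 3 libraries of a group. PGAM1 and SLC16A1 drop between days 2 and 22 with no overlap, NDRG1 rises, SLC2A1 spreads out up to 2741 TPM at day 32, and PFKFB4, BNIP3, and SLC16A3 lie highest on LN521 at day 22.

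The matrices were then compared within each day. At day 22, 30 of the 34 genes had their highest mean TPM on LN521, as did 35.7% of those 12981 genes. All 3 LN523 libraries lay below all 3 LN521 libraries for 19 members, beside 3.52% of those genes, and for LN323 the count was 10 members beside 5.22%. In the other direction there were 0 members for LN523 beside 6.22% of genes, and 1 for LN323, SLC16A1, beside 2.9%. Both comparisons use the same LN521 libraries, so their values are given side by side and are not independent. By edgeR's quasi-likelihood test, 17 members were lower on LN523 than on LN521 and 0 were higher, beside 0.572% of all genes (0.394% lower and 0.179% higher). On LN323, 8 members were lower than on LN521 and 0 higher, beside 0.616% of all genes (0.311% lower and 0.306% higher). The median over the 34 genes was -0.71 and -0.49, beside -0.02 and -0.07 over all genes tested. On each matrix, replicate 2 deviated most from its group in these genes. In it, 26 members were below the group mean on LN523 and 23 on LN323 (median deviation -0.30 and -0.12 log2). On LN521, 28 members were above it (median 0.32). Of the 12981 genes, 44.4%, 44.1%, and 55.8% were below the group mean in these libraries. What set replicate 2 apart was not tested.

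These calls depended on the model. The 17 became 10 with DESeq2, 1 without the lane block, and 0 with filterByExpr, with a minimum of 10 counts in every library, with limma, with only the 6 libraries compared, or with all 27 libraries in the fit. The 8 became 4 with DESeq2 and 0 with each of these other settings, except that 8 passed with only the 6 libraries compared. Under the low-count filters 0 genes of the whole table passed either comparison, while 19 and 13 members kept an unadjusted p under 0.05, beside 4.44% and 4.73% of all genes under filterByExpr and 5.04% and 5.31% under the minimum of 10 counts. Leaving out 1 library gave 5 to 21 calls for LN523, with 10 without LN523 replicate 2, 5 without LN523 replicate 3, and 9 without LN521 replicate 2. For LN323 it gave 0 to 17, with 1 without LN323 replicate 1, LN323 replicate 3, or LN521 replicate 2, 0 without LN323 replicate 2, and 17 without LN521 replicate 1. The fold changes of the genes called stayed below 0 under each of the 15 settings computed for each comparison.

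PFKFB4 differed most. It had 25.1, 20.3, and 25.8 TPM on LN523, 30.4, 20.9, and 34.6 TPM on LN323, and 59.8, 96.0, and 59.9 TPM on LN521. Every LN521 library was above all 6 others, and the log2 fold changes were -1.63 ± 0.19 for LN523 and -1.33 ± 0.19 for LN323 (adjusted p = 1.07e-08 and 1.61e-06). At day 2 the same gene had overlapped between the matrices, with 50.5, 18.3, and 67.0 TPM on LN523, 52.3, 67.4, and 20.8 TPM on LN323, and 45.8, 85.5, and 45.0 TPM on LN521. Its promoter window, shown above, held 1 match to the HIF core.

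The BNIP3 window held the largest number of matches among the sequences shown, at 6. Windows of HK2, called on LN523, and of BSG, called on neither matrix, also held up to 6. SLC2A1 and PKM, called on LN523, held none, and whether matches go with the differences was not tested. BNIP3 had 80.5, 24.3, and 97.7 TPM on LN523, 111, 49.1, and 95.2 TPM on LN323, and 136, 147, and 146 TPM on LN521. The LN521 libraries were close together and above all others, while replicate 2 was low on both other matrices. The log2 fold changes were -1.33 ± 0.20 and -0.89 ± 0.20 (adjusted p = 8.64e-06 and 0.00556). BNIP3 has 23 annotated pseudogene rows, which held up to 13.5% of its count in a library (median 2.09%), so its level is less certain than that of the others.

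ALDOC had 57.9, 28.9, and 49.6 TPM on LN523, 45.5, 51.4, and 54.3 TPM on LN323, and 92.0, 148, and 80.4 TPM on LN521. Again the LN521 libraries were above all others, and the log2 fold changes were -1.24 ± 0.21 and -1.06 ± 0.21 (adjusted p = 7.91e-05 and 0.000585). PDK1 had 7.63, 6.29, and 9.30 TPM, then 11.7, 11.5, and 8.21 TPM, and 16.0, 32.3, and 13.7 TPM in the same order of matrices. Its log2 fold changes were -1.35 ± 0.21 and -0.93 ± 0.20 (adjusted p = 1.36e-05 and 0.00523), and LN521 replicate 2 was high.

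SLC16A3 had 23.9, 4.40, and 23.0 TPM on LN523, 30.5, 8.17, and 23.7 TPM on LN323, and 27.2, 41.4, and 36.7 TPM on LN521. Replicate 2 was far below its partners on LN523 and LN323, and without it the LN523 values still lay below those of LN521, while 1 LN323 library lay among them. The log2 fold changes were -1.46 ± 0.25 and -1.09 ± 0.25 (adjusted p = 0.000141 and 0.00744), and over the settings the second ran from -1.65 to -0.06. Both SEs were small beside the scatter of these libraries. ENO2 had 167, 29.7, and 105 TPM on LN523, 120, 29.2, and 88.1 TPM on LN323, and 150, 127, and 154 TPM on LN521. One LN523 library was above the whole LN521 group, so only the LN323 libraries stood apart, at fold changes of -0.90 ± 0.21 and -1.16 ± 0.21 (adjusted p = 0.0106 and 0.000124).

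SLC2A3 had 462, 229, and 438 TPM on LN523, 461, 237, and 433 TPM on LN323, and 732, 562, and 630 TPM on LN521. The LN521 group stood above both, with log2 fold changes of -0.86 ± 0.17 and -0.82 ± 0.17 (adjusted p = 0.00118 and 0.00201). PFKFB3 was the remaining gene called in both comparisons, at -0.76 ± 0.19 and -0.71 ± 0.19 (adjusted p = 0.0255 and 0.0444), with overlapping TPM. The 9 genes called on LN523 but not on LN323 were HK2 (-1.06), ENO1 (-0.92), LDHA (-0.88), PGK1 (-0.82), TPI1 (-0.81), VEGFA (-0.80), PKM (-0.71), GPI (-0.70), and SLC2A1 (-0.69), with adjusted p from 0.000228 to 0.0444. For LN323 against LN521 the same 9 ran from -0.64 (PGK1) to -0.09 (SLC2A1). A direct test of LN523 against LN323 at day 22 passed 0 of 34 genes (edgeR, and 0 with DESeq2, 5 at an unadjusted p under 0.05, beside 0.013% of all genes by adjusted and 1.33% by unadjusted p), so LN523 and LN323 were not shown to differ in them.

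Members with little difference on this day were LDHB (-0.06 and -0.07), PFKM (-0.0023 and 0.18), BSG (-0.11 and 0.04), and SLC16A1 (0.19 and 0.18). None passed, although the SLC16A1 values of LN323 (182 to 192 TPM) all lay above those of LN521 (159 to 173 TPM), and the 95% intervals ran from -0.44 to 0.52 at their widest. LDHA and LDHB, and SLC16A3 and SLC16A1, thus gave unlike values within a pair, although the differences within pairs were not tested.

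**Figure D5:**
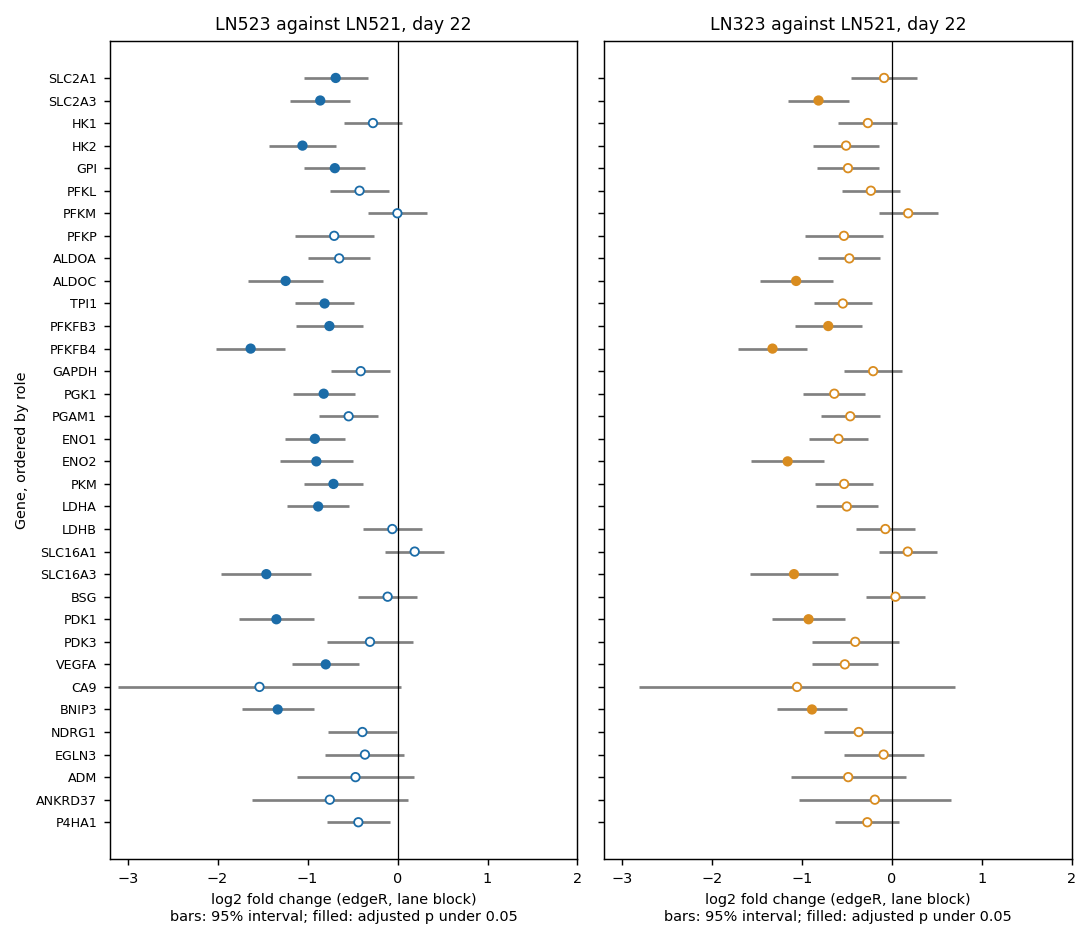
Log2 fold change of each of the 34 genes at day 22 for LN523 against LN521 (left) and LN323 against LN521 (right), with 95% intervals and filled symbols where the adjusted p is under 0.05. On the left 33 symbols and on the right 31 symbols lie below 0, and 17 and 8 are filled.

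Other genes moved beside these at day 22 in the same edgeR test. There, 0.394% and 0.311% of all genes were lower on LN523 and LN323 than on LN521, and 0.179% and 0.306% were higher. Under either low-count filter 0 genes of the whole table passed, so the calls on list genes below were lost too. The list genes were not followed through the other settings. Of 30 other hypoxia targets, 7 were lower on LN523 than on LN521 and 0 higher, led by PPFIA4 (-1.90) and MIR210HG (-1.70), and 2 were lower on LN323, PPFIA4 (-2.04) and AK4 (-0.91). Of 10 hypoxia factors and regulators, 19 pyruvate genes, and 28 other isozymes and shunt genes tested, 0 passed either comparison (edgeR), with 3, 0, and 1 of them at an unadjusted p under 0.05 on LN523 and 1, 0, and 3 on LN323. The 6 pluripotent markers summed to 155, 228, and 609 TPM in the LN521 libraries, given from lowest to highest, to 77.9, 110, and 222 TPM on LN523, and to 96.8, 107, and 109 TPM on LN323. For comparison, day 2 libraries summed to at least 9004 TPM. NANOG was lower by 4.50 log2 on LN523 and by 3.50 on LN323, and 3 and 5 of the 6 markers passed. The neuron list summed to 24.6, 36.0, and 436 TPM in the LN521 libraries, from lowest to highest, and to 20.5 to 54.4 TPM on the other matrices. Only the highest LN521 library lay outside that range. By the test, 4 and 2 of 6 neuron genes were lower on LN523 and LN323 than on LN521. The pigment genes TYRP1 (-1.63 and -1.32) and, on LN523, TYR (-1.37) were lower, the keratinocyte gene KRT17 was higher (1.61 and 1.13), and 1 and 2 mesenchyme genes were higher. The part of these cell types in the glycolytic differences was not tested.

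At day 2, LN521 had the highest mean TPM for 24 members, LN323 for 9, and LN523 for 1, beside 61.95%, 20.8%, and 17.3% of the 12981 genes. LN523 differed from LN323 and from LN521 in 0 members (edgeR, and 0 with DESeq2), beside 0.233% and 0.624% of all genes. At an unadjusted p under 0.05 there were 4 and 6 members, beside 2.38% and 8.07% of all genes. Leaving out 1 library gave up to 9 members against LN323 (without LN323 replicate 2, with 3 without LN523 replicate 2 and 1 without LN523 replicate 3) and up to 7 against LN521 (without LN523 replicate 3, with 1 without LN523 or LN521 replicate 2). LN323 and LN521 differed in 2, beside 2.5% of all genes. ENO2 had 61.9, 129, and 45.8 TPM on LN323 and 120.3, 128, and 260.5 TPM on LN521, a log2 fold change of -0.79 ± 0.19 (adjusted p = 0.00468) with overlap of the groups. ADM had 107, 65.8, and 87.4 TPM on LN323 and 56.8, 72.2, and 48.3 TPM on LN521, higher by 0.79 ± 0.20 (adjusted p = 0.00913), also with overlap. The count was 0 with either low-count filter, with limma, with all 27 libraries, and without LN323 replicate 1, and 14 without LN323 replicate 2.

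Replicates within a day 2 group differed widely in these genes. In LN523 replicate 2, 30 of 34 members were below the mean of their group (median deviation -0.40 log2), and in LN323 replicate 3, 31 of 34 (median -0.39). The median over 12981 genes was -0.01 and -0.03 in these libraries. SLC16A3 had 4.28 TPM in LN523 replicate 2 beside 30.8 and 47.2 TPM in its partners, and 5.83 TPM in LN323 replicate 3 beside 28.9 and 50.4 TPM. BNIP3 had 30.8 TPM beside 158 and 250 TPM, and 38.9 TPM beside 130 and 237 TPM. The 2 low libraries were low in many of the same genes, among them LDHA at 265 and 293 TPM where the other 7 day 2 libraries had at least 517 TPM. LDHB, in contrast, had 1976 and 1966 TPM in these 2 libraries and 1797 to 1970 TPM in their partners. The other hypoxia targets on the list also summed lowest in these groups, down to 622 TPM in each of LN523 and LN323, beside 1144 TPM or more on LN521. What set these libraries apart was not tested.

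At day 32, 0 of 34 members passed in any pair of matrices (edgeR, and 0 with DESeq2). Unadjusted p was under 0.05 for 2 genes for LN523 against LN323 and for 3 genes in either comparison with LN521, beside 1.9%, 5.17%, and 4.47% of all genes. By adjusted p, 0%, 0.0609%, and 0.117% of all genes passed. LN521 was now the matrix with the highest mean for 5 members, LN523 for 18, and LN323 for 11, beside 43.3%, 24.2%, and 32.5% of the 12981 genes. SLC2A1 had 2603, 1431, and 1688 TPM on LN523, 2523, 1858, and 1300 TPM on LN323, and 791, 825, and 2741 TPM on LN521. LN521 held both the lowest and the highest value, and the log2 fold changes were 0.48 ± 0.33 for LN523 and 0.47 ± 0.33 for LN323 against LN521 (adjusted p = 0.988 and 1), with 95% intervals from -0.20 to 1.16 and from -0.21 to 1.16. Without LN521 replicate 3 they became 1.41 and 1.35 (adjusted p = 0.0111 and 0.00994), and without replicate 1 they were -0.06 and -0.06.

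The same LN521 replicate 3 was high in other members. PFKFB4 had 13.1, 25.1, and 79.1 TPM on LN521 at day 32, LDHA 204, 319, and 682 TPM, and BNIP3 48.1, 74.0, and 192 TPM. Replicate 3 was above its group mean for 27 of 34 members and replicate 1 below it for 28, while 56.6% and 46.9% of the 12981 genes were below the group mean in these libraries. Without replicate 1, 5 members passed for LN523 against LN521 and 7 for LN323 against LN521. BSG was even across matrices, with 711, 662, and 654 TPM on LN523, 772, 538, and 633 TPM on LN323, and 623, 594, and 710 TPM on LN521, and log2 fold changes of 0.10 ± 0.17 and -0.02 ± 0.17 against LN521 (adjusted p = 0.988 and 1). SLC2A1 and BSG also gave 0.01 ± 0.31 and 0.11 ± 0.17 for LN523 against LN323.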

How the data were processed

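H1 cells on 3 laminin matrices were sequenced at 3 days in 3 replicates (bulk RNA, stranded total RNA kit). Per the paper and the labels, the authors trimmed reads with cutadapt, aligned them to hg38 with STAR 2.5.2b and counted them with featureCounts 1.5.1, ribosomal and mitochondrial genes being removed. The strand setting is not given in the sources used here. The deposited counts are raw reads per gene, 68.8% of the nonzero values being even, so both mates of a pair appear to have been counted. The deposited TPM values are the authors' counts per gene length, scaled per library, with the same gene lengths in every library.

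The main test was edgeR 4.0.16 (R 4.3.3) quasi-likelihood with TMM, on genes whose counts summed to more than 1, with the lane as a block, since the study's model had it, and Benjamini-Hochberg adjustment over all genes (threshold 0.05). The lane equals the replicate number. No gene-wise dispersion was fitted, and the quasi-likelihood step shrinks each gene's own spread toward that of other genes. A gene with a deviating library can therefore have an SE that is small beside its own scatter. Matrices were compared within a day on its 9 libraries (38650, 38609, and 39377 genes at days 2, 22, and 32), and days on all 27 (44852 genes). Same-numbered libraries deviated together in every pair (r over 0.1 across 25497 genes) only for LN523 with LN323 at days 22 and 32. Alternatives were DESeq2 1.42.0, RLE scaling, filterByExpr, at least 10 counts in every library, no replicate block, limma 3.58.1 on log2(TPM + 1), other sets of libraries in the fit, and leaving out each library. Depth ran from 25620624 to 47340990 counts.

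On simulated data for LN523 against LN521 at day 22, 29% of 100 genes with a 2-fold and 61% of 100 with a 4-fold change were recovered among 38609. For the average from day 2 to day 22 the shares were 44% and 70%, and for a difference of changes 1% and 31%, both among 44852. The simulated counts had no lane effect, no deviating libraries, and a spread set by abundance alone. The changed genes were drawn from those that clear filterByExpr, so these shares need not hold in the real data. The members and gene lists were chosen with earlier results of these data known. Members are named with a fold change where they passed, up to 5 in each direction within 1 matrix, SLC2A1 and BSG always at day 32, and list genes up to 2 in each direction. Values of other members are given as descriptions chosen after their values were seen. Isozyme shares are fractions of summed TPM. Gene positions are from GENCODE 44 (43052 of 44852 IDs matched), and promoter windows from RefSeq, GRCh38.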

Additional observations from a re-analysis of the deposited data

How the results depend on the processing

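Of 1627 values of named genes recomputed under another setting, 1299 kept their direction and their side of the threshold, 309 lost the call, 2 gained it, and 17 changed sign. The count of 28 members between days 2 and 22 ran from 22 to 30 over the settings and from 25 to 29 without 1 library. Within 1 matrix, limma gave 17 for LN523 and 15 for LN323, and leaving out 1 library gave 20 to 26, 17 to 28, and 12 to 14 for LN523, LN323, and LN521.

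At day 22, the 17 members lower on LN523 than on LN521 became 10 (DESeq2), 1 (no replicate block), and 0 (filterByExpr, 10 counts in every library, limma, only the groups compared, and all 27 libraries), with 5 to 21 without 1 library. For LN323 against LN521, 8 became 4 (DESeq2) and 0 (filterByExpr, 10 counts, no replicate block, limma, and all 27 libraries), with 0 to 17 without 1 library. LN523 against LN323 went from 0 to 2 with only the groups compared. At day 2, the 2 members for LN323 against LN521 became 1 (DESeq2), 0 (both filters, limma, and all 27 libraries), and 4 (no replicate block, and only the groups compared), with 0 to 14 without 1 library. LN523 against LN521 went from 0 to 1 (no replicate block) and 2 (only the groups compared), with 0 to 7 without 1 library, and LN523 against LN323 had 0 to 9. At day 32, LN523 against LN323 gave 3 with only the groups compared, and leaving out 1 library gave 0 to 5 and 0 to 7 against LN521.

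From day 22 to day 32, the average count of 2 became 1 (DESeq2, and only the groups compared) and 0 (both filters and limma), with 0 to 3 without 1 library. On LN523, 2 became 0 (DESeq2, both filters, and limma), 1 (no replicate block), and 6 (only the groups compared), with 0 to 3 without 1 library. On LN323 and LN521, only the groups compared gave 1 and 3, and leaving out 1 library gave 0 to 2 on LN521. Differences of change against LN521 gave 7 and 5 (day 22 against day 2) and 1 and 1 (day 32 against day 22) with only the groups compared, with 0 to 1 and 0 to 4 for LN523 without 1 library. The replicate block changed no other count by over 1.5 times. The cause of these changes was not tested.

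Sign changes were limited to SLC2A1 and BSG, and for SLC2A1 they were not confined to estimates near 0. At day 32, leaving out 1 library took SLC2A1 from -0.38 to 0.29 for LN523 against LN323 (lowest without LN323 replicate 3), from -0.061 to 1.41 for LN523 against LN521, and from -0.064 to 1.35 for LN323 against LN521 (both lowest without LN521 replicate 1 and highest without replicate 3). For BSG it gave -0.020 to 0.24 for LN523 against LN521 and -0.14 to 0.13 for LN323 against LN521, where limma gave 0.00075 and all 27 libraries 0.0040. BSG from day 22 to day 32 was -0.00062 with limma and ran from -0.032 to 0.071 without 1 library.

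Shares of counts in place of TPM moved 18 of the isozyme shares by more than 1 SD, given here for days 2, 22, and 32. PFKL went to 36.5%, 40.2%, and 40.8%, PFKP to 33.98%, 14.4%, and 15.6%, ALDOC to 5.78%, 3.89%, and 3.93%, LDHB to 59.5%, 58.8%, and 53.5%, SLC16A3 to 7.13%, 17.8%, and 23.9%, and PDK3, as a share of PDK1 and PDK3, to 38.3%, 27.9%, and 25.6%. PFKL was thus above PFKP at day 2 in counts and below it in TPM. With 3 libraries a group, small differences could not be resolved, and CA9, with as few as 2 counts in a library, is limited by depth.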
